A study of Mus musculus with 30 samples.

Results

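Sox1-positive cells sorted from floating aggregates of mouse embryonic stem (ES) cells were set against the other aggregate cells of the same culture. The Sox1-positive pool held 3 samples, the cells sorted as Sox1-positive on day 3, day 4 and day 5. The pool of other aggregate cells held 3 samples as well, the day 1 aggregate, the day 2 E-cadherin-positive cells and the day 3 Sox1-negative cells. Together they were 6 of the 10 samples of the series and 18 of its 30 arrays, and they were chosen by their labels alone. The samples outside both pools were 3 ES samples and the day 2 E-cadherin-negative cells. Setting aggregate cells against aggregate cells leaves out changes relative to ES cells that all 6 samples share. Changes that differ between days or sorts stay in the comparison.

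All cells came from one 129-derived ES line that carries a Sox1-GFP reporter, so the controls carried it too. They were grown in suspension as aggregates (the serum-free SFEB culture) in a medium with a serum replacement. RNA was taken from cells sorted by flow cytometry, and the day 1 sample carries no sort marker in its labels. Each sample was measured once on the 3 U74 version 2 chips of Affymetrix, as a linear intensity per probe set. The medians of the 18 arrays lay between 180 and 266. The labels do not say whether any samples came from separate cultures, and each day and sort had 1 sample. The spread within a pool is therefore the spread between days and sorts, and the p-values measure that spread alone. Day and pool are not matched, since the Sox1-positive cells were of days 3 to 5 and the other cells of days 1 to 3. The only pair of one day is that of day 3. Its differences are given for the leading genes and for genes chosen by a rule of size that left it out. In bulk samples of this kind, fewer cells of a type and less RNA per cell cannot be told apart.

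Sox1 encodes an HMG-box transcription factor that appears when ectoderm becomes neuroectoderm, the sheet that forms the neural tube. ES cells hold a network of factors around Oct4, the product of Pou5f1, which must be shut off before a neural fate is taken. In the absence of serum and of BMP signals, ES cells in aggregates take this path through a state that resembles the epiblast of the early embryo. Caudal neural fate, marked by Hox genes, is set in part by retinoic acid, Wnt and FGF signals.

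Sox1 and Cdh1, the genes of the sort markers, were not among those called. In intensity units, and in the order day 3, day 4 and day 5 Sox1-positive, Sox1 had 308, 310 and 252, against 152, 253 and 241 in the day 1, day 2 and day 3 samples of the other pool. The day 5 value lay below that of day 2 E-cadherin-positive cells, so the pools overlapped, and the log2 difference was 0.43 ± 0.23 (SE) with a limma adjusted p of 0.304. Cdh1, which encodes E-cadherin, had 418, 454 and 404 in Sox1-positive cells, against 534, 572 and 594 in the other cells. All 3 Sox1-positive samples were below the others, but the difference of -0.40 ± 0.16 did not pass (limma adjusted p = 0.185). Pou5f1 had 3139, 2203 and 575 in Sox1-positive cells, against 6783, 11905 and 7075 in the other cells. It fell by 2.37 ± 0.56 on the log2 scale (limma adjusted p = 0.0372), with the lowest value on day 5. That call ended without the day 1, day 2, day 3 Sox1-negative or day 4 sample, with limma adjusted p of 0.0889, 0.126, 0.0797 and 0.0687.

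The labels were checked against markers of the cell types that such a culture could hold. Of 10 neuroectoderm markers 8 were higher in Sox1-positive cells, and the exceptions were Sox1 itself and Pou3f2. Their summed intensity was 17485 to 23030 in Sox1-positive samples, against 3270 to 3717 in the other samples. Of 9 tested markers of ES cells or early epiblast 6 were lower, and their sum was 2529 to 9083 in Sox1-positive samples, against 25095 to 33046 in the others. No marker of mesoderm (3 tested), endoderm (7), surface ectoderm or trophectoderm (3), fibroblasts (4) or blood and endothelium (1) was called by limma at an adjusted p under 0.05; at an unadjusted p under 0.05 there were 2 of mesoderm, both lower, and 0 of the other types. These are the defining markers; longer lists of the same tissues had some members called. Of 24 endoderm genes 4 were higher, the chemokine receptor gene Cxcr4, the basement membrane genes Col4a1 and Col4a2, and Lama1, and 1 was lower, Hhex; with each sample left out 2 to 4 were higher and 0 to 2 lower, with 2 higher without day 5. Cxcr4 had 238, 221 and 306 in Sox1-positive cells, against 32.8, 28.8 and 8.85 in the others (2.83 ± 0.28, limma adjusted p = 0.00164). Lower were 3 of 14 genes of surface ectoderm and trophectoderm (Tfap2c, Grhl2 and Grhl3), 1 of 17 of mesoderm (Tcf15) and 1 of 9 of fibroblasts (Timp1), and 0 of these were higher. Over all genes tested 5.67% were called higher and 4.59% lower. The endoderm list had 16.7% higher and 4.17% lower. The shares lower were 21.4% for surface ectoderm and trophectoderm, 5.88% for mesoderm and 11.1% for fibroblasts. The mesoderm share was near that of all genes, and the fibroblast share was 1 gene. By limma, leaving out a sample ended the calls of Col4a1 (adjusted p = 0.0524 without day 5), of Hhex (0.051 to 0.0606 without day 1, day 3 Sox1-negative or day 4), of Lama1 in each fit but that without day 4 (0.0699 to 0.112) and of Timp1 in each but that without day 4 (0.0727 to 0.15). The sums of the fibroblast markers were 1642 to 2020 in Sox1-positive samples, against 1215 to 2185 in the others. The endoderm sum was 934 to 2139 in Sox1-positive samples, against 858 to 1241 in the others. Of 4 neural crest markers 2 were lower. The longer neural crest list went both ways, with 3 of 13 lower (23.1%) and 1 higher (7.69%). With each sample left out 3 were lower and 1 to 2 higher. Of 5 neuronal markers 1 was higher, with a neuronal sum of 6240 to 12232 in Sox1-positive samples, against 4850 to 6044 in the others. RNA integrity was read from the actin and Gapdh controls. The 3' to 5' ratio of actin was 0.993 to 1.44 in Sox1-positive samples, with the highest values on day 5, against 0.939 to 1.14 in the others. That of Gapdh was 0.830 to 0.942 in Sox1-positive samples, against 0.818 to 0.938 in the others. The part of RNA integrity in the results was not tested, and counts without the day 5 sample are given with the calls.

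Across 12935 genes, limma at an adjusted p under 0.05 called 734 higher (5.67%) and 594 lower (4.59%) in Sox1-positive cells, 10.3% in all. In each of these 1328 genes the 3 arrays of one pool lay outside the range of the other, which was true of 34.4% of all genes tested. A difference of 2 or more on the log2 scale was seen in 163 of the genes called higher and 144 of those called lower. The median over all genes tested was -0.03. By probe sets, 2250 of 25690 were called (8.76%). When each of the 6 samples was left out in turn, the genes called numbered 331 to 627 higher and 265 to 478 lower. Without the day 5 sample they were 396 and 352. In all 6 of these fits 274 of the 734 and 223 of the 594 kept their call, and 96 and 82 kept it in none. With day fitted as a slope beside the pool, 37 genes were called (0.286%), 16 higher and 21 lower. That fit takes the slope to be straight and the same in both pools, which share only day 3. It compares the pools at a common day only under that assumption. Day and pool also run together in these samples, which makes each fitted difference less precise. How much of the smaller count goes with day was not tested.

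The 15 largest rises on the scale of log2(intensity + 16) included Ednrb, the endothelin receptor B of neural progenitors and neural crest. Its intensity was 2093, 3568 and 9061 on days 3, 4 and 5 of Sox1-positive cells, against 123, 13.8 and 41.3 in day 1, day 2 and day 3 cells of the other pool. The log2 difference was 6.04 ± 0.66 (limma adjusted p = 0.00264), and the values of the Sox1-positive cells were higher the later the day. Nr2f1, the nuclear receptor COUP-TFI that patterns the nervous system, had 852, 1540 and 4099 in Sox1-positive cells, against 12.5, 26.5 and 6.89 in the others. It rose by 5.87 ± 0.51 (limma adjusted p = 0.0011), and no sample of the other pool came near the lowest Sox1-positive one. The other pool had low values of both genes, and their order rests on the pseudocount: with 1 in place of 16, Nr2f1 had 6.94 and Ednrb 6.58. Fabp7, the brain lipid-binding protein of radial glia, had 2887, 3364 and 5441 in Sox1-positive cells, against 255, 55.9 and 54.8 in the others (log2 difference 5.08 ± 0.51, limma adjusted p = 0.00165). Crabp1, which binds retinoic acid in the cytoplasm, ran the other way within the pool, with 11405, 9898 and 5075 in Sox1-positive cells, against 862, 136 and 159 in the others (4.86 ± 0.63, limma adjusted p = 0.00415). The rest of the 15, by log2 difference, were the microtubule-binding protein gene Eml1 (4.48), the transcription factor Dach1 (4.46), the neural POU factor Pou3f3 (4.37), the heparan sulfate sulfotransferase Hs3st3b1 (4.36), Pea15a (4.30), a small protein that binds ERK, the adhesion receptor Adgrv1 (4.30), Mn1 (4.25), Ildr2 (4.20), Hoxa2 (4.01), Irx1 (3.94) and the paternally expressed Peg12 (3.91). Of these Pea15a varied least between samples, with 1252, 736 and 784 in Sox1-positive cells, against 28.8, 36.9 and 26.1 in the others (SE 0.24, limma adjusted p = 0.000311). The call of Irx1 ended without the day 4 sample (limma adjusted p = 0.0507).

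The 15 largest falls on the same scale included Esrrb, a nuclear receptor of the naive ES network. It had 68.2, 140 and 100 in Sox1-positive cells, against 3996, 4242 and 5190 in the others, a log2 difference of -5.28 ± 0.30 (limma adjusted p = 0.00055). Zfp42, the zinc finger gene Rex1 by which ES cells are recognised, had 42.3, 123 and 11 in Sox1-positive cells, against 3835, 1655 and 1440 in the others (-5.13 ± 0.58, limma adjusted p = 0.00253). Both genes separated the pools by more than 10-fold at every pairing of samples. Their order, too, rests on the pseudocount, since with 1 Zfp42 had -5.71 and Esrrb -5.48. B3gnt2, a glycosyltransferase that extends poly-N-acetyllactosamine chains, had the smallest adjusted p of the leading falls. Its values were 17.9, 13.5 and 12.3 in Sox1-positive cells, against 720, 602 and 733 in the others (-4.52 ± 0.18, limma adjusted p = 7.97e-05). Inpp5d, the inositol phosphatase SHIP1, had 23.4, 28.6 and 23.1 in Sox1-positive cells, against 1136, 860 and 640 in the others (-4.41 ± 0.23, limma adjusted p = 0.000295). The others of the 15 were Mymx (-4.92), Dusp27 (-4.59), the cyclin-like Ccno (-4.39), the zinc finger gene Bnc2 (-4.32), the F-box gene Fbxo15 (-4.27), Smim40 (-4.21), Dppa2 (-4.04), the nuclear receptor Nr0b1 (-3.95), the chromatin-bound Utf1 (-3.85), Mreg (-3.84) and the Kruppel-like factor Klf2 (-3.83). Mymx had 210, 9.92 and 16.9 in Sox1-positive cells, against 5069, 548 and 1861 in the others, and its call ended without the day 1, day 3 Sox1-negative, day 4 or day 5 sample (limma adjusted p 0.0893 to 0.107).

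**Figure D1:**
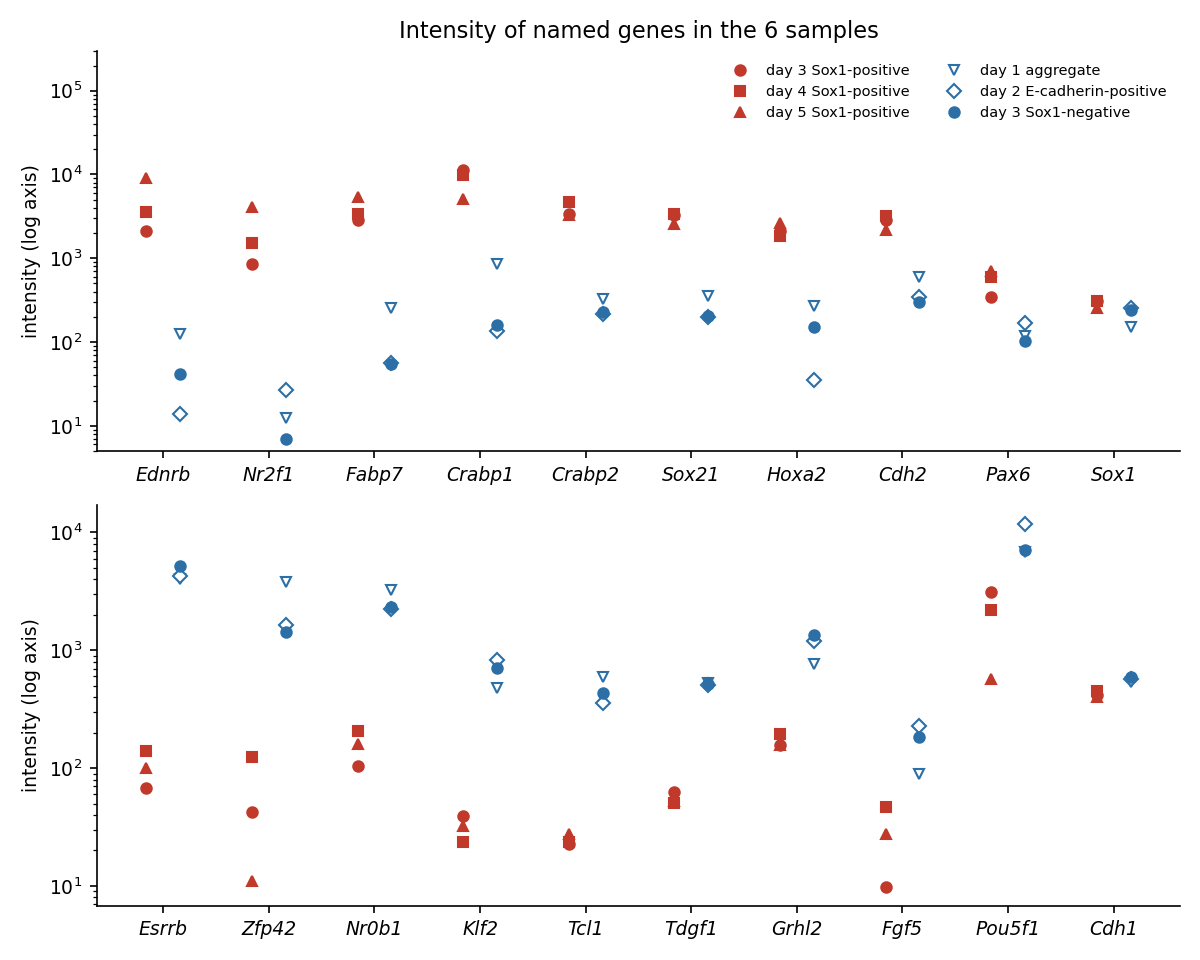
Intensity (log axis) of 20 genes in the 6 samples, Sox1-positive samples (red, left of each pair) beside the other aggregate cells (blue, right), with 1 point per sample. Sox1 and Cdh1 lie close between the pools, with values of Sox1 overlapping, while Nr2f1 is at 852 or more in Sox1-positive cells and at 26.5 or less in the others.

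Pluripotency genes were the list with the largest share of falls. Of 41 tested genes 24 were lower (58.5%, against 4.59% over all genes) and 0 higher in Sox1-positive cells. The median log2 difference was -2.07, against -0.03 over all genes. When each sample was left out in turn 18 to 23 were called lower. The lists were chosen with earlier results of these data known, so these counts describe the lists. At an unadjusted p under 0.05 limma gave 30 lower and 0 higher. Factors of the naive network were among the largest falls. Tbx3, a T-box factor, had 3.25, 9.88 and 5.68 in Sox1-positive cells, against 366, 160 and 362 in the others (-3.73 ± 0.36, limma adjusted p = 0.00264). Nr0b1, which encodes Dax1, had 104, 206 and 159 in Sox1-positive cells, against 3268, 2224 and 2330 in the others. Klf2 had 38.9, 23.5 and 32.5 in Sox1-positive cells, against 477, 833 and 706 in the others, so it was low on all 3 days of the Sox1-positive sort. Tfcp2l1 fell by 2.77 ± 0.30, Klf5 by 1.89 ± 0.22 and Nr5a2 by 2.36 ± 0.19 (limma adjusted p 0.00201, 0.00269 and 0.00078). Tcl1, a coactivator of Akt, had 22.7, 23.4 and 27.7 in Sox1-positive cells, against 593, 357 and 432 in the others.

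Of the 41 pluripotency genes 17 were not called. Nanog had 2920, 3029 and 398 in Sox1-positive cells, against 6218, 6429 and 6849 in the others, and the difference of -2.07 ± 0.68 missed the threshold (limma adjusted p = 0.105). Within the Sox1-positive pool the day 5 value stood far below those of days 3 and 4, and without the day 5 sample Nanog was called (-1.12, limma adjusted p = 0.0185). Dppa5a, which was called, also had its lowest value on day 5, with 1966, 1566 and 195 in Sox1-positive cells, against 11668, 13526 and 11861 in the others; its fall of 3.83 ± 0.73 (limma adjusted p = 0.0176) was lost without the day 1, day 2 or day 3 Sox1-negative sample (0.0609, 0.0652 and 0.0502). Sox2, which both ES cells and neural progenitors use, had 4972, 4128 and 5386 in Sox1-positive cells, against 5538, 6278 and 6620 in the others (-0.35 ± 0.18, limma adjusted p = 0.297). Klf4 had 532, 315 and 343 in Sox1-positive cells, against 423, 787 and 784 in the others, and the pools overlapped (limma adjusted p = 0.201).

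Genes of the primed epiblast, the state between ES cells and germ layers, went both ways. Of 17 tested, 6 were higher (35.3%, against 5.67% over all genes) and 4 lower (23.5%, against 4.59%). There were 2 lower without the day 2 or the day 3 Sox1-negative sample. Fgf5, a ligand used to mark primed epiblast, had 9.70, 46.4 and 27.5 in Sox1-positive cells, against 88.8, 227 and 183 in the others (-2.06 ± 0.39, limma adjusted p = 0.0176). That call ended without the day 2 or the day 3 Sox1-negative sample (0.0673 and 0.0569). Zic5, a zinc finger factor, had 529, 533 and 357 in Sox1-positive cells, against 1498, 1656 and 1627 in the others (-1.74 ± 0.21, limma adjusted p = 0.00399). Among those that rose were Sox3, a close relative of Sox1, with 4838, 3621 and 4794 in Sox1-positive cells, against 893, 1192 and 1742 in the others (1.82 ± 0.26, limma adjusted p = 0.00628). The surface protein gene Cd24a rose by 2.40 ± 0.20 (limma adjusted p = 0.000883) and Tead2, a partner of Yap, by 1.63 ± 0.24 (0.00608). The list's name thus covers genes of unlike direction.

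Neural progenitor genes had the largest share of rises. Of 44 tested, 29 were higher (65.9%, against 5.67% over all genes) and 0 lower, and the median log2 difference was 1.97. When each sample was left out in turn 22 to 30 were called higher. At an unadjusted p under 0.05 limma gave 31 higher and 1 lower. Sox21, a SoxB factor, had 3303, 3337 and 2590 in Sox1-positive cells, against 353, 200 and 203 in the others (3.56 ± 0.30, limma adjusted p = 0.00168). Pax6, a paired-box factor of the neural tube and eye, had 347, 593 and 696 in Sox1-positive cells, against 119, 170 and 102 in the others (1.91 ± 0.29, limma adjusted p = 0.00754). Nes, the intermediate filament nestin, had 1599, 1926 and 2583 in Sox1-positive cells, against 417, 828 and 742 in the others, a smaller rise of 1.63 ± 0.29 (limma adjusted p = 0.0144). The RNA-binding protein gene Msi1 rose by 2.07 ± 0.22 and the membrane protein gene Prom1 by 2.51 ± 0.39 (limma adjusted p 0.00253 and 0.0077). Pou3f1 and Pou3f2 were not called. Pou3f1, a POU factor of late epiblast and neuroectoderm, had 276, 236 and 237 in Sox1-positive cells, against 331, 486 and 406 in the others (-0.66 ± 0.20, limma adjusted p = 0.0797).

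Regional identity was read from lists for the front and the back of the neural tube. Of 20 tested genes of midbrain, hindbrain and caudal neural tube, 8 were higher and 0 lower (median 0.94), and at an unadjusted p under 0.05 limma gave 12 and 0. Irx3, an Iroquois homeobox gene, varied little within either pool, with 2140, 2224 and 2082 in Sox1-positive cells, against 308, 313 and 319 in the others (2.72 ± 0.16, limma adjusted p = 0.00032). Hoxb2, a hindbrain Hox gene, had 4604, 10435 and 5602 in Sox1-positive cells, against 1288, 785 and 742 in the others (2.81 ± 0.35, limma adjusted p = 0.00419). Hoxa2 had 2115, 1825 and 2632 in Sox1-positive cells, against 269, 35.2 and 152 in the others (4.01 ± 0.61, limma adjusted p = 0.0109). Irx2 rose by 2.09 ± 0.22 (limma adjusted p = 0.00244). En2, of the midbrain and hindbrain border, had 453, 754 and 1295 in Sox1-positive cells, against 513, 287 and 236 in the others, and the pools overlapped (limma adjusted p = 0.117; 0.047 without the day 3 Sox1-positive sample). Of 8 tested genes of forebrain and eye, 1 was higher, Fezf2, with 184, 298 and 222 in Sox1-positive cells, against 111, 129 and 104 in the others (0.92 ± 0.21, limma adjusted p = 0.0343), a call that ended in each fit that left out a sample other than day 3 Sox1-positive (limma adjusted p 0.0785 to 0.109). The forebrain list tested fewer genes, and only 8 of its 17 genes on the chips passed the filter on low signals, against 20 of 27 caudal genes. The filter used the mean over both pools, so a gene low in 1 pool could pass through the other. Without it 8 of 27 caudal genes (median 0.61) and 0 of 17 forebrain genes were higher.

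Of 28 neuronal genes 2 were higher, Neurog1 and Stmn2, a share of 7.14% near the 5.67% over all genes (10 higher and 1 lower at an unadjusted p under 0.05), and 0 to 3 were called when each sample was left out, with 0 without day 3 Sox1-negative. The call of Stmn2 ended without the day 3 Sox1-negative sample (limma adjusted p = 0.0565). Neurog1, a proneural bHLH factor, had 43.1, 239 and 347 in Sox1-positive cells, against 11.5, 25.8 and 18.1 in the others (2.37 ± 0.59, limma adjusted p = 0.0433), and its call ended in each fit that left out a sample other than day 3 Sox1-positive (0.102 to 0.135). Tubb3, the neuronal beta-tubulin, had 4351, 4396 and 7219 in Sox1-positive cells, against 3902, 5039 and 4132 in the others (0.25 ± 0.24, limma adjusted p = 0.592). None of 6 genes of the ventral neural tube was called by limma (1 at an unadjusted p under 0.05), although their median log2 difference was 1.54; in the day 3 pair it was -0.09. The floor plate factor Foxa2 had 55.3, 51.5 and 1315 in Sox1-positive cells, against 28.1, 40.1 and 52.3 in the others (limma adjusted p = 0.343). Nkx2-2 had 54.6, 64.1 and 1908 in Sox1-positive cells, against 40, 48.8 and 68.3 in the others (limma adjusted p = 0.4). The pooled difference of both genes came from the day 5 sample alone, since on days 3 and 4 they were at the level of the other pool.

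**Figure D2:**
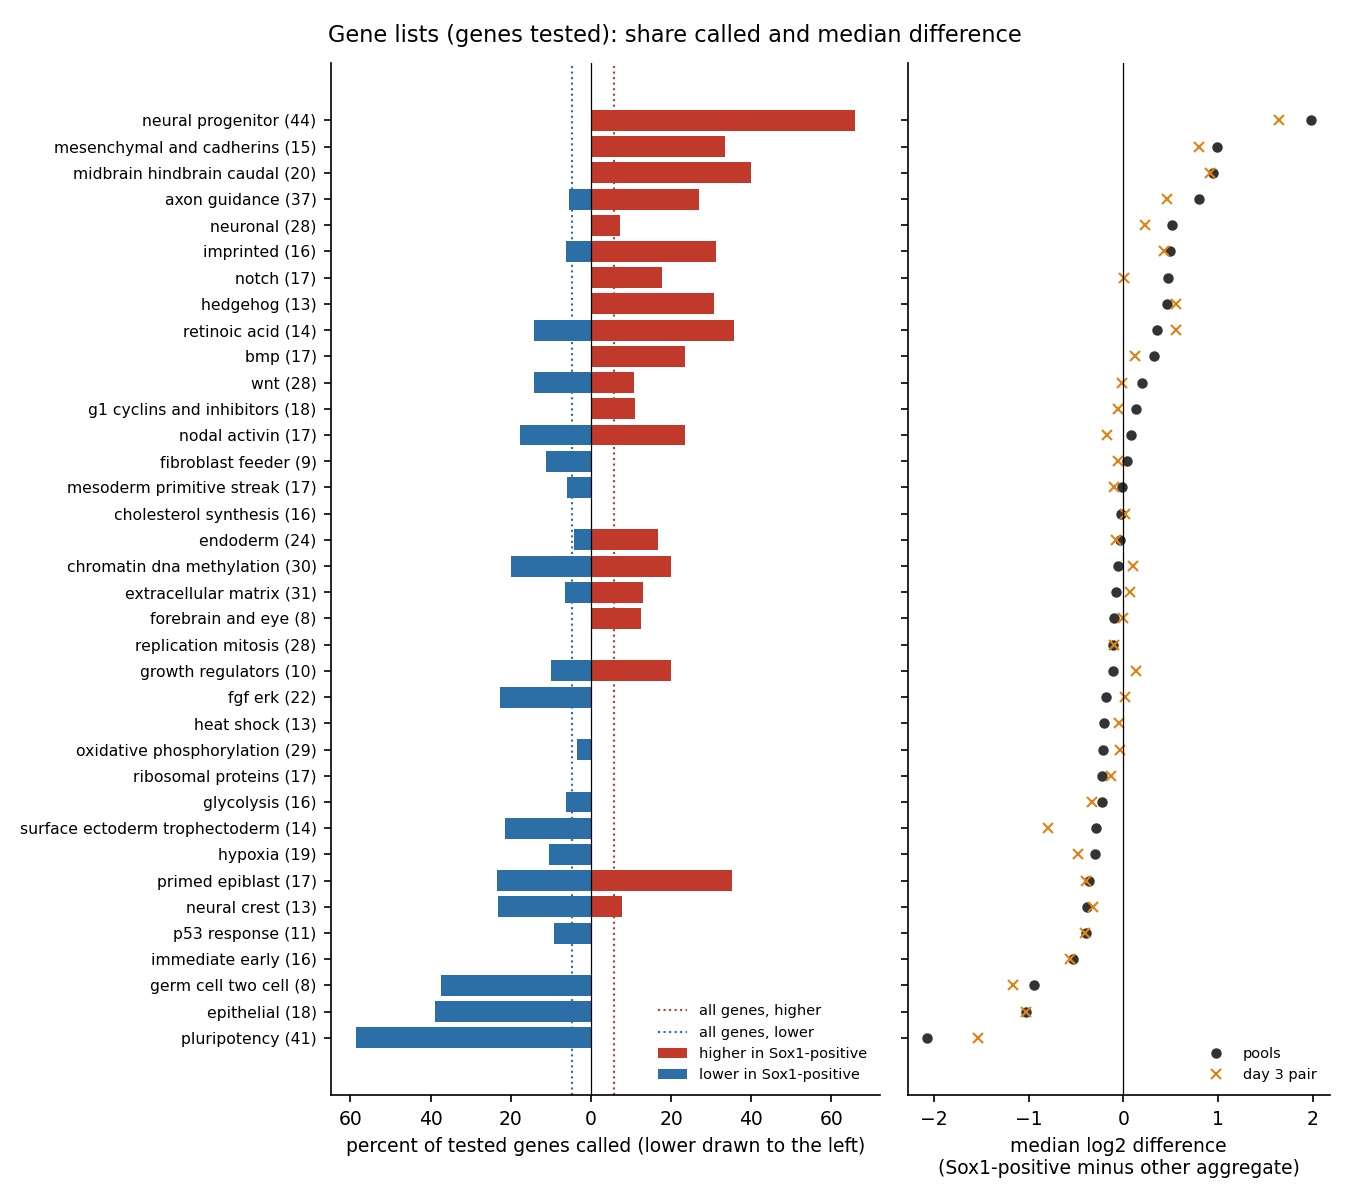
Left, percent of the tested genes of each list with 8 or more tested that were called higher (red, to the right) or lower (blue, to the left) in Sox1-positive cells, with dotted lines at the shares over all genes, 5.67% and 4.59%; right, median log2 difference of the pools (dots) and of the day 3 pair (crosses). Neural progenitor genes have the largest share of rises, 29 of 44, and pluripotency genes the largest share of falls, 24 of 41.

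Adhesion genes were read by list. Of 18 epithelial genes 7 were lower (38.9%, against 4.59% over all genes) and 0 higher (median -1.03). At an unadjusted p under 0.05 limma gave 11 and 0. Grhl2, a factor that maintains epithelial junctions, had 157, 194 and 158 in Sox1-positive cells, against 763, 1200 and 1362 in the others (-2.56 ± 0.25, limma adjusted p = 0.00184). Jup, plakoglobin, had 334, 289 and 106 in Sox1-positive cells, against 1398, 1465 and 1387 in the others (-2.60 ± 0.37, limma adjusted p = 0.00534). The desmosomal Pkp2 fell by 2.17 ± 0.29 and the claudin Cldn4 by 2.86 ± 0.50 (limma adjusted p 0.00433 and 0.0127). Of 15 genes of mesenchyme and other cadherins 5 were higher (33.3%, against 5.67% over all genes) and 0 lower. All 5 were cadherins or a protocadherin. At an unadjusted p under 0.05 limma gave 8 and 1. There were 2 higher without the day 2 E-cadherin-positive or the day 4 sample and 3 without day 3 Sox1-negative or day 5. Cdh2, N-cadherin of the neural plate, had 2840, 3180 and 2190 in Sox1-positive cells, against 606, 347 and 298 in the others (2.72 ± 0.28, limma adjusted p = 0.00184). Cdh4 rose by 2.82 ± 0.31 (limma adjusted p = 0.00264). The Grainyhead factor Grhl3 and Tfap2c, genes of surface ectoderm and trophectoderm, fell by 3.37 ± 0.40 and 2.91 ± 0.31 (limma adjusted p 0.00475 and 0.00196). Epcam, an epithelial adhesion molecule, had 2783, 2083 and 2365 in Sox1-positive cells, against 2332, 1877 and 2007 in the others (limma adjusted p = 0.668), but 1 of its 4 probe sets was lower.

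Signalling genes were read by pathway. In the nodal and activin list 4 of 17 were higher (23.5%, against 5.67% over all genes) and 3 lower (17.65%, against 4.59%). At an unadjusted p under 0.05 limma gave 4 and 5. Without day 4 there were 2 higher, and 1 was lower without the day 1, day 2 or day 3 Sox1-negative sample. Tdgf1, the co-receptor Cripto, had 62.1, 51.0 and 52.2 in Sox1-positive cells, against 529, 512 and 522 in the others (-2.92 ± 0.17, limma adjusted p = 0.000311). Follistatin, Fst, which binds activin, had 1170, 1830 and 984 in Sox1-positive cells, against 123, 134 and 224 in the others (2.92 ± 0.29, limma adjusted p = 0.00165). Lefty1, a nodal inhibitor, had 36270, 16847 and 1157 in Sox1-positive cells, against 42663, 49194 and 36908 in the others. It was not called (-2.25 ± 1.16, limma adjusted p = 0.302), as its day 3 value was near those of the other pool and its day 5 value far below.

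In the FGF and ERK list 5 of 22 genes were lower (22.7%, against 4.59% over all genes) and 0 higher. At an unadjusted p under 0.05 limma gave 7 lower and 4 higher. There were 2 lower without the day 2 sample and 3 without day 3 Sox1-negative or day 4. Fgf4, the ligand by which ES cells signal to one another, had 914, 869 and 828 in Sox1-positive cells, against 2336, 2822 and 2032 in the others (-1.43 ± 0.19, limma adjusted p = 0.00411). Etv5, an ETS factor that answers FGF signals, had 2204, 1797 and 908 in Sox1-positive cells, against 6756, 6298 and 8967 in the others (-2.23 ± 0.34, limma adjusted p = 0.00858). The feedback inhibitor Spry2 had 4910, 7658 and 7336 in Sox1-positive cells, against 5382, 7453 and 6992 in the others, and the pools overlapped (limma adjusted p = 0.99).

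In the Wnt list 3 of 28 were higher (10.7%, against 5.67% over all genes) and 4 lower (14.3%, against 4.59%), and 6 and 4 at an unadjusted p under 0.05 in limma. Those higher were the receptor Fzd2 and the secreted antagonists Sfrp1 and Sfrp2; the call of Fzd2 ended without the day 4 sample (limma adjusted p = 0.0603). Sfrp1 had 5814, 5291 and 6327 in Sox1-positive cells, against 598, 683 and 462 in the others (3.30 ± 0.21, limma adjusted p = 0.000394). Notum, an enzyme that inactivates Wnt ligands, had 931, 1388 and 842 in Sox1-positive cells, against 5134, 4263 and 3266 in the others (-2.0 ± 0.26, limma adjusted p = 0.00501). The receptor Fzd5 had 199, 185 and 203 in Sox1-positive cells, against 739, 836 and 1010 in the others (-2.04 ± 0.19, limma adjusted p = 0.00164). Frizzled receptors thus differed in direction. Wls, which carries Wnt ligands to the cell surface, rose by 2.93 ± 0.18 (limma adjusted p = 0.000394) with 2697, 2585 and 2088 in Sox1-positive cells, against 298, 298 and 322 in the others.

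The BMP list had 4 of 17 genes higher (23.5%, against 5.67% over all genes) and 0 lower. At an unadjusted p under 0.05 limma gave 5 and 1. Higher were 1 without the day 2 sample and 2 without day 5. Id2, an inhibitor of bHLH factors and a BMP target, had 3030, 3818 and 4186 in Sox1-positive cells, against 448, 319 and 424 in the others (3.16 ± 0.21, limma adjusted p = 0.000394). The ligand Bmp4 had 264, 236 and 234 in Sox1-positive cells, against 264, 349 and 356 in the others (limma adjusted p = 0.278). In the hedgehog list 4 of 13 were higher (30.8%) and 0 lower, with 6 and 0 at an unadjusted p under 0.05 in limma. The co-receptor Boc rose by 2.84 ± 0.34, Gas1 by 2.04 ± 0.20 and the signal transducer Smo by 1.76 ± 0.27 (limma adjusted p 0.00387, 0.00164 and 0.00827). The ligand Shh had 98.8, 75.1 and 708 in Sox1-positive cells, against 120, 145 and 116 in the others, so that only the day 5 sample was high (limma adjusted p = 0.747). Its target Gli1 had 120, 84.7 and 555 in Sox1-positive cells, against 131, 111 and 151 in the others (limma adjusted p = 0.705).

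Of 14 retinoic acid genes 5 were higher (35.7%, against 5.67% over all genes) and 2 lower (14.3%, against 4.59%). Without the day 1 or the day 2 sample 1 was lower. Crabp2, which hands retinoic acid to its nuclear receptors, had 3404, 4748 and 3270 in Sox1-positive cells, against 322, 216 and 229 in the others (3.81 ± 0.23, limma adjusted p = 0.000328). Rarg, the gamma receptor, moved the opposite way with 49.9, 68.1 and 29.6 in Sox1-positive cells, against 1304, 876 and 574 in the others (-3.81 ± 0.33, limma adjusted p = 0.0011). The partner receptor Rxra rose by 1.49 ± 0.20 (limma adjusted p = 0.00535) on the probe set kept for the gene, the only one called of its 5. Cyp26a1, the enzyme that degrades retinoic acid, had 80.1, 234 and 152 in Sox1-positive cells, against 38.6, 86.0 and 58.4 in the others (limma adjusted p = 0.112; 0.0348 without the day 3 Sox1-positive sample).

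Of 17 Notch genes 3 were higher (17.65%, against 5.67% over all genes) and 0 lower. At an unadjusted p under 0.05 limma gave 5 and 2. Without the day 2 sample 1 was higher, and without day 1 there were 2 higher and 1 lower. Nrarp, a feedback inhibitor of Notch, had 1340, 2079 and 1836 in Sox1-positive cells, against 175, 106 and 358 in the others (3.08 ± 0.40, limma adjusted p = 0.0047). Hes5, a Notch target of neural progenitors, had 1190, 1214 and 1266 in Sox1-positive cells, against 1418, 1197 and 1182 in the others on the probe set kept (limma adjusted p = 0.934), while its other probe set was called higher. The receptor Notch1 had 611, 647 and 1758 in Sox1-positive cells, against 555, 450 and 488 in the others (limma adjusted p = 0.236). In the axon guidance list 10 of 37 were higher and 2 lower, with 6 to 9 higher and 0 to 2 lower when each sample was left out; 6 were higher without day 2 or day 4, and 0 lower without day 2, day 3 Sox1-negative, day 4 or day 5. Rgma, a repulsive membrane cue, had 2319, 3730 and 4372 in Sox1-positive cells, against 343, 293 and 423 in the others (3.21 ± 0.28, limma adjusted p = 0.00133). The ephrin Efnb3 rose by 1.89 ± 0.26 and the receptor Epha4 by 1.74 ± 0.26 (limma adjusted p 0.00475 and 0.00703).

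Chromatin and DNA methylation genes were split, with 6 of 30 higher and 6 lower. Without day 1, day 4 or day 5 the higher numbered 3, and without day 2 or day 3 Sox1-negative the lower numbered 3. Dnmt3l, the cofactor of the de novo methyltransferases, had 1594, 1296 and 1324 in Sox1-positive cells, against 11015, 6995 and 5663 in the others (-2.43 ± 0.27, limma adjusted p = 0.00279). Tet1, which oxidises methylcytosine, had 542, 1078 and 521 in Sox1-positive cells, against 6018, 4012 and 3897 in the others (-2.73 ± 0.36, limma adjusted p = 0.00734). The maintenance enzyme Dnmt1 had 3886, 3882 and 3700 in Sox1-positive cells, against 2571, 3467 and 3616 in the others (limma adjusted p = 0.464). Hmga2, an architectural protein of progenitors, rose by 3.06 ± 0.37 and the polycomb gene Cbx2 by 1.48 ± 0.25 (limma adjusted p 0.00312 and 0.0102).

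Of 16 imprinted genes 5 were higher (31.25%, against 5.67% over all genes) and 1 lower (6.25%, against 4.59%). There were 3 higher without day 2, day 3 Sox1-negative or day 4, and 0 lower without day 1, day 2 or day 5. Nnat, neuronatin, had 3665, 5388 and 2873 in Sox1-positive cells, against 666, 437 and 583 in the others (2.76 ± 0.27, limma adjusted p = 0.00157), and Ndn, necdin, rose by 2.45 ± 0.25 (0.0018). Among growth regulators Mycl rose by 1.96 ± 0.24 and Myc fell by 1.3 ± 0.21 (limma adjusted p 0.00353 and 0.00933). Myc had 46.6, 55.9 and 48.2 in Sox1-positive cells, against 190, 144 and 114 in the others. The cyclin Ccnd2 had 735, 1068 and 1687 in Sox1-positive cells, against 126, 167 and 124 in the others (2.86 ± 0.30, limma adjusted p = 0.00184). It was 1 of 2 genes called higher among 18 G1 cyclins, their kinases and inhibitors (11.1%, against 5.67% over all genes). The other 16 were not called, and the median log2 difference of the list was 0.13. With each sample left out 1 to 2 were higher. None of 28 replication and mitosis genes was called by limma, as was true of ribosomal protein genes (17 tested), cholesterol synthesis (16), heat shock (13), immediate early genes (16) and blood and endothelium (5). At an unadjusted p under 0.05 they had, in the same order, 3, 1, 3, 2, 4 and 2. Pcna, the replication clamp, had 5543, 4830 and 5125 in Sox1-positive cells, against 4441, 4741 and 5331 in the others (0.10 ± 0.17, limma adjusted p = 0.796).

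Since the pools differ in day, genes were also chosen by a rule of size that left out the day 3 samples, and then read in them. The filter on low signals and the choice of probe set had used the means over all pooled samples, day 3 included. Genes qualified when the days 4 and 5 Sox1-positive arrays both lay above, or both below, those of the day 1 and day 2 samples, with a mean difference of 2 or more on the log2 scale. The rule took 238 genes as higher (1.84% of those tested) and 191 as lower (1.48%). On day 3 itself, 193 of the 238 were higher by 1 or more in the Sox1-positive cells than in the Sox1-negative cells, 81.1%, and 0 were lower by as much. Over all genes tested 7.01% were higher by 1 or more on that day and 7.27% were lower. Of the 191 genes 155 were lower by 1 or more (81.2%) and 3 were higher. The median day 3 difference was 1.79 for the first set and -1.94 for the second. The day 3 pair has 1 sample on each side and no test.

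The named genes also showed where the day 3 pair and the pools came apart. Both day 3 samples are part of the pools, so nearness of the day 3 and pooled differences is in part built in. Many of these genes were named for the size of 1 or the other difference. On day 3 the difference was 5.20 for Ednrb and 5.36 for Fabp7, near the pooled ones. It was -4.64 for Zfp42, -4.46 for B3gnt2 and 2.69 for Irx3. Pou5f1 differed by -1.17 on day 3, against -2.37 between the pools, and Mymx by -3.06, against -4.92. Crabp1 had the largest day 3 difference of the genes called higher, 6.03, above its pooled 4.86. Esrrb had the largest among those called lower, -5.95. By contrast Hmox1, heme oxygenase, fell by 1.24 ± 0.28 between the pools (limma adjusted p = 0.033) but differed by -0.42 on day 3, with 1521, 1050 and 731 in Sox1-positive cells, against 2969, 2614 and 2037 in the others. Values within both pools were lower the later the day, and the call of Hmox1 ended without the day 1, day 2, day 4 or day 5 sample (limma adjusted p 0.0784 to 0.106) and without day 3 Sox1-negative (0.051). The 37 genes called with day as a slope include Irx3, Sfrp1, Wls, Crabp1, Crabp2, Cdh2, Sox21, Id2 and Hmga2 among the rises. Among the falls they include Esrrb, Klf2, Nr0b1, Tcl1, Tdgf1, Rarg, Grhl2, B3gnt2 and Inpp5d. In that fit limma adjusted p was 0.0152 for B3gnt2, 0.0242 for Irx3 and 0.11 for Ednrb, which was not called there although its log2 difference was 5.63, against 6.04 without the slope.

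The 4 samples outside the pools were not used to call any gene, and they were placed on the scale of the called genes, with 0 at the mean of the other aggregate cells and 1 at the Sox1-positive mean of the log2 level. This reading was chosen after values were seen, and it is a description. The day 2 E-cadherin-negative cells stood at a median of 0.672 in the genes called higher and 0.569 in those called lower. They lay nearer to the Sox1-positive mean in 538 of 734 and in 356 of 594 genes. Fabp7 was at 4093 in them and Nnat at 5826, within or above the range of the Sox1-positive samples, while Nr2f1 was at 132, closer in log2 terms to the other pool. Zfp42 was at 275 and Esrrb at 695, between the pools. The mean of the 3 ES samples stood at a median of 0.02 for genes called higher and 0.03 for genes called lower, at the level of the other aggregate cells. Taken 1 by 1, the ES samples had medians of -0.147, 0.05 and 0.178 for genes called higher, and 0.007, 0.036 and 0.058 for genes called lower. The actin 3' to 5' ratio was 1.231 to 1.331 in the day 2 E-cadherin-negative sample and 1.645 to 1.846 in ES sample 3. Its part in these positions was not tested.

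**Figure D3:**
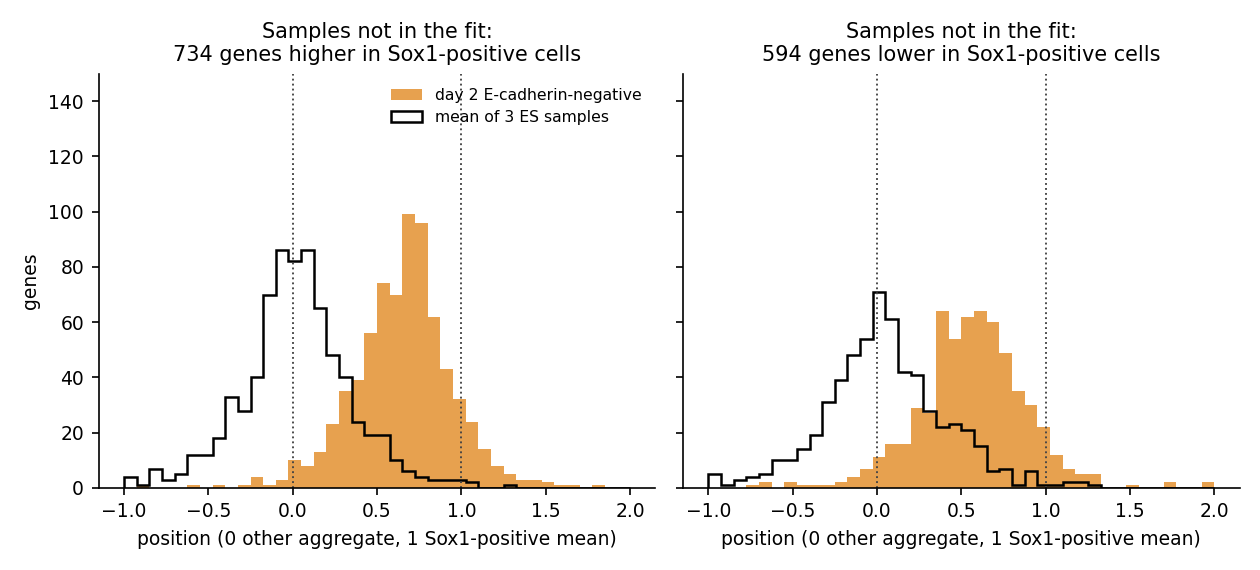
Number of called genes by position of the day 2 E-cadherin-negative sample (filled) and of the mean of the 3 ES samples (outline), on a scale with 0 at the mean of the other aggregate cells and 1 at the Sox1-positive mean; positions beyond -1 and 2 are drawn at the ends. The median of the E-cadherin-negative cells is 0.672 for genes higher and 0.569 for genes lower in Sox1-positive cells, and that of ES cells 0.02 and 0.03.

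Some called genes went against this placing of the ES cells. In 28 of the 734 genes called higher and 48 of the 594 called lower, the ES samples all lay on the Sox1-positive side. They were beyond the range of the other aggregate cells, with their mean nearer to the Sox1-positive one. The same count was not made over all genes tested, so no excess is read from it. These genes, too, were chosen after their values were seen. Fgf5 was among them, at 18.6 ± 5.86 (SD, n = 3) in ES cells, so the other aggregate cells were the high group. Six4, a homeobox gene, had 322, 267 and 212 in Sox1-positive cells, against 1072, 852 and 1148 in the others (-1.89 ± 0.21, limma adjusted p = 0.00248), with 356 ± 79.3 (SD, n = 3) in ES cells. Wt1, a zinc finger factor, had 151, 102 and 78.4 in Sox1-positive cells, against 402, 624 and 348 in the others, with 175 ± 58.8 (SD, n = 3) in ES cells.

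**Figure D4:**
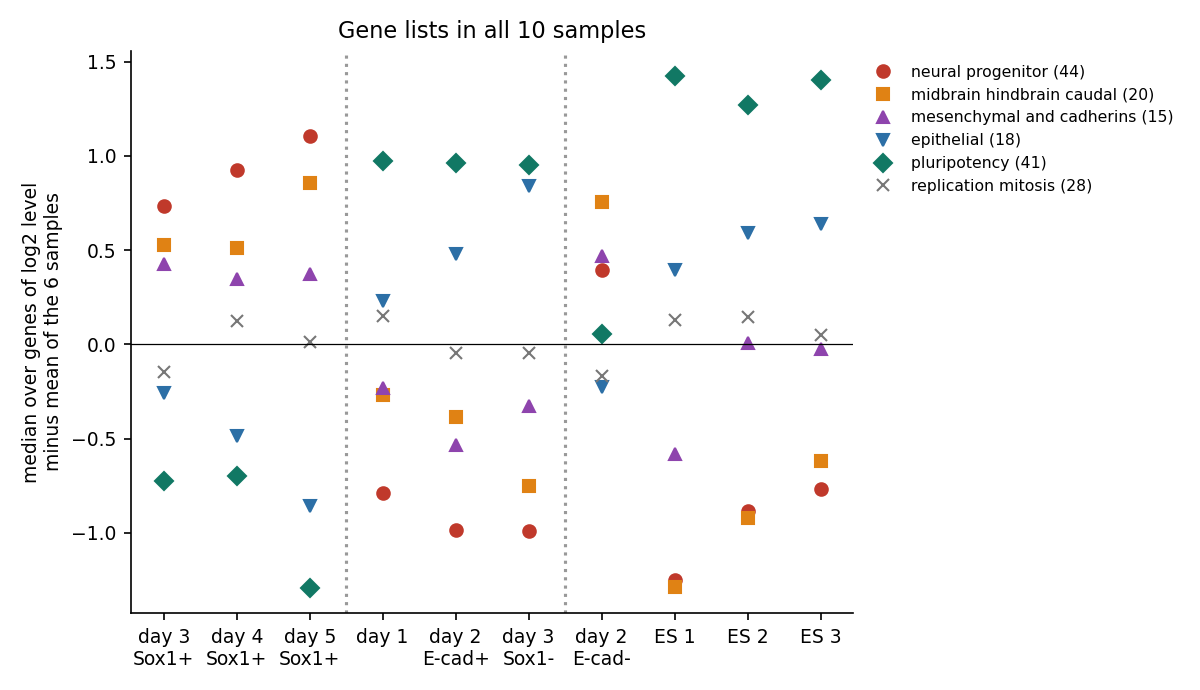
Median over the tested genes of 6 lists of the log2 level minus the mean of the 6 pooled samples, in all 10 samples, with Sox1-positive cells left of the first dotted line, the other aggregate cells between the lines, and samples outside the fit on the right. Pluripotency genes lie at -0.70 to -1.29 in Sox1-positive cells and at 0.95 to 0.97 in the other aggregate cells, and day 2 E-cadherin-negative cells are between them at 0.05.

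Promoter sequences were read for the called genes because POU factors occur on both sides of the comparison: Pou5f1 among the falls and Pou3f3 among the rises. POU factors bind the octamer, whose letters are ATTTGCAT. RefSeq promoters (GRCm38.p6, 250 bases before to 50 after the start) were found for 10332 of the genes tested, and the 8258 with a single promoter were used. The octamer, on either strand, was in 7 of 445 promoters of genes called higher (1.57%), in 10 of 341 of genes called lower (2.93%) and in 1.38% of all 8258. Where the difference was 2 or more it was in 6 of 93 higher (6.45%) and 3 of 85 lower (3.53%), so the order of the shares turned with the size asked for. It was 1 of 15 short motifs searched after values were seen, and no test was made. The octamer core ATGCAAA was in 2.02% of promoters of genes called higher, 5.28% of genes called lower and 3.17% of all. The GC box GGGCGG, for comparison, was in 73.3%, 66.6% and 62.9%. The promoters of the 2 largest rises and 2 largest falls with an octamer are shown 5′ to 3′, with the octamer or its reverse complement in capitals.
Hs3st3b1 (chr11:63922235-63922534, minus strand): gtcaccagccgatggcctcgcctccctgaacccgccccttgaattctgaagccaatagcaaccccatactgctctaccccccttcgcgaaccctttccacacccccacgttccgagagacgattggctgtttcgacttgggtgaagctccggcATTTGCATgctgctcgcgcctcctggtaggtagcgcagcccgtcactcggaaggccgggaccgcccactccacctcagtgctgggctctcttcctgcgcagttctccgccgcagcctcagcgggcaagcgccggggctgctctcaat
Nrarp (chr2:25180508-25180807, plus strand): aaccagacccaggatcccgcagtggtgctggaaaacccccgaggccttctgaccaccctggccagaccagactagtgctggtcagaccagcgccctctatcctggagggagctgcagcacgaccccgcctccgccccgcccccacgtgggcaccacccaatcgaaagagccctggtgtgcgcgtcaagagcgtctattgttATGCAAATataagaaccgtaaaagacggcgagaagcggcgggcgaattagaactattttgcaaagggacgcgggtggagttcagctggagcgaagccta
Zfp42 (chr8:43306960-43307259, minus strand): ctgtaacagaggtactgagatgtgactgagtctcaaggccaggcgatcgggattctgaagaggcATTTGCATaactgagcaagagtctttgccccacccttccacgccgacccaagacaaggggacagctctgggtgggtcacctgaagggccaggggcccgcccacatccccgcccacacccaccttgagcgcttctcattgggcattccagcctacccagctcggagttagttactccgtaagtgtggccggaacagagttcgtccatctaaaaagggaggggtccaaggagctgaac
Chchd10 (chr10:75932880-75933179, plus strand): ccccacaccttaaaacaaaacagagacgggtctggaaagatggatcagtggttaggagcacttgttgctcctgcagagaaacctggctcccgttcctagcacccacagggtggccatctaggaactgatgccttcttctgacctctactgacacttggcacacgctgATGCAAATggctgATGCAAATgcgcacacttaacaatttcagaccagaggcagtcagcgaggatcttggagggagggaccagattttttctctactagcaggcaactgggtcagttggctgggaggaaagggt
In the promoter of Zfp42 the copy starts 186 bases before the start site, and in that of Hs3st3b1 97 bases before it. Chchd10, a mitochondrial protein gene, holds 2 copies. It had 2526, 1199 and 403 in Sox1-positive cells, against 10444, 12608 and 11132 in the others (-3.38 ± 0.55, limma adjusted p = 0.00938). Hs3st3b1 had 1631, 2709 and 2084 in Sox1-positive cells, against 225, 81.8 and 30.5 in the others (4.36 ± 0.54, limma adjusted p = 0.00415). Promoters with the octamer thus stood before genes that rose as well as before genes that fell. A match of letters is a description and not a binding site. The same promoters held a median of 23 CG dinucleotides in genes called higher and 19 in genes called lower, against 20 in all genes, and 21 and 14 where the difference was 2 or more.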

How the data were processed

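RNA of 6 samples was hybridised to 3 chips each, and the authors deposited a linear intensity for every probe set on every array, already scaled to 2% trimmed means of 499.868 to 499.921; which software and background correction were used is not given in these sources. Control probe sets (198 of 36899) were left out, symbols came from the platform tables, and 29044 of 29131 probe sets naming 1 gene were matched by Entrez ID to RefSeq names. Log2(intensity + 16), which understates changes of low genes, was fitted per chip by limma 3.58.1 (lmFit and eBayes, R 4.3.3) on probe sets whose mean reached the 30th percentile, with Benjamini-Hochberg adjustment over the 25690 tested on 3 chips. Of these 6047 had an unadjusted p under 0.05. Each gene was read from its probe set of highest mean log2 level.

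The members and the 39 gene lists were chosen with earlier results of these data known. Named were Sox1, Cdh1, Pou5f1, the 15 largest rises and falls, leading list members, extremes of the day 3 pair or of the spread, and genes called with a day slope; Epha4, Irx2, Klf4, Klf5, Msi1, Pkp2, Prom1, Sox2, Tfcp2l1, Chchd10, the called genes of the endoderm, mesoderm and fibroblast lists and the genes set beside ES cells were chosen after their values were seen. On simulated data limma recovered 29.0%, 72.7% and 92% of 186, 183 and 175 probe sets changed by 1, 2 and 3 on the log2 scale (25690 tested, 2.79% of calls false). The simulated arrays had independent noise and no change with day. The 2.79% therefore does not describe the calls on these samples, where day and pool are not matched. Figures were drawn with matplotlib 3.10.9 in Python 3.11.15. The number of arrays limits the precision.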

Additional observations from a re-analysis of the deposited data

How the results depend on the processing

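With day as a slope 52 probe sets, 16 genes higher and 21 lower were called, while median differences were 1.49, against 1.97, for neural progenitor genes and -1.37, against -2.07, for pluripotency genes. Testing against a difference of 1 (log2) limma called 162 probe sets, 63 genes higher and 57 lower, by the construction of that test. Without both day 3 samples there were 1005 probe sets, 359 genes higher and 252 lower, from fewer samples. Leaving out each sample in turn gave 993 to 1881 probe sets, 331 to 627 genes higher and 265 to 478 lower, with the fewest without the day 2 E-cadherin-positive sample. Without a filter 481 genes were called higher, with more probe sets tested. With a pseudocount of 64 the rule of size took 122 genes as lower. Counts of genes under quantile normalization, scaling to the 75th percentile, a pseudocount of 1, a filter at the 60th percentile, the spread of ES samples, a mean-variance trend, adjustment within chips and averaging of probe sets stayed within 1.5 times the counts reported.

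Of 130 genes in the text 108 were called. When all probe sets of a gene were averaged, Epcam (-0.73, limma adjusted p = 0.0362) and Hes5 (1.61, 0.0102) were called in the direction opposite to that of the probe set kept. The calls of Jup, Neurog1, Rxra, Stmn2, Tead2 and Utf1 ended in that setting (0.0521 to 0.256), and Bmp4 was called lower (0.0176). Signs of uncalled genes changed 17 times over all settings without a call. With the spread taken from ES samples, Nanog, Lefty1, Foxa2, Nkx2-2, En2 and Cyp26a1 were called (0.00775 to 0.0335), and Adgrv1, Col4a2, Fezf2, Fzd2, Hoxa2, Stmn2 and Timp1 lost their call (0.0526 to 0.192). The cause of these changes was not tested. No paired analysis was made: each day and sort had 1 sample, the labels link no samples to a common culture, and only day 3 is in both pools. Probe sets near the filter had low signals, where sizes depend on the pseudocount: Nr2f1 had 6.94 with 1 and 4.53 with 64.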

Other observations

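Gene groups with few members showed further differences, given as values. Tex19.1 and Rhox5, genes of germ cells and early embryo that DNA methylation silences in most tissues, had 157, 163 and 95.5 and 192, 163 and 25.9 in Sox1-positive cells, against 2302, 1740 and 1340 and 1795, 1145 and 1160 in the other aggregate cells. Tex19.1 fell by 3.55 ± 0.27 and Rhox5 fell by 3.54 ± 0.55 (limma adjusted p 0.00063 and 0.00828). Ooep, a maternal-effect gene of the oocyte, had 195, 173 and 149 in Sox1-positive cells, against 2445, 1823 and 2585 in the other aggregate cells, a fall of 3.60 ± 0.21 (limma adjusted p = 0.000354). Of 8 tested genes of germ cells and of the two-cell-like state 3 were lower (37.5%, against 4.59% over all genes) and 0 higher. At an unadjusted p under 0.05 limma gave 4 and 0.

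Pdk1, a kinase that inhibits pyruvate dehydrogenase, was the 1 gene called of 16 in the glycolysis list. It had 636, 840 and 468 in Sox1-positive cells, against 2347, 2662 and 3518 in the other aggregate cells (-2.12 ± 0.26, limma adjusted p = 0.00321). That is 6.25% of the list, against 4.59% called lower over all genes. Of 19 hypoxia genes 2 were lower (10.5%; 1 to 4 when each sample was left out, with 4 without day 1 and 1 without each other sample), and 7 lower and 1 higher at an unadjusted p under 0.05 in limma. Erbb3, a neuregulin receptor of neural crest, had 91.0, 88.5 and 87.6 in Sox1-positive cells, against 419, 323 and 453 in the other aggregate cells (-1.97 ± 0.19, limma adjusted p = 0.00143). Sgk1, a serum and glucocorticoid regulated kinase, had 112, 175 and 100 in Sox1-positive cells, against 1155, 1150 and 1985 in the other aggregate cells (-3.30 ± 0.28, limma adjusted p = 0.00101).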
